A study of Homo sapiens with 5 samples.

Results

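The antisense genes were the 70 of 2694 genes in the deposited table whose symbol ends in -AS, with or without a number after it. This ending is given to a long noncoding RNA (lncRNA) read from the strand opposite to a named gene, and the gene named before -AS is called its sense partner here. The members were chosen by name only, and 21 of the 70 had their sense partner in the table. The values came from total RNA of TC28a2, an immortalized human chondrocyte line from costal cartilage, in growth medium (GM, n = 2) or hypertrophic medium (HM, n = 3), with day 5 as the time of extraction. GM held 10% fetal bovine serum. In HM the serum was 1%, and the added factors were GDF-5 (10 ng/ml), BMP-2 (100 ng/ml), the thyroid hormone T3 (1 µM), dexamethasone (10 nM), β-glycerophosphate (10 mM), ascorbic acid (50 µg/ml) and insulin, transferrin and selenium (1%). The media therefore differed in serum as well as in the hypertrophic factors, and these cannot be told apart. Both groups were the same unmodified line, and the labels do not say whether the libraries came from separate cultures, so each p-value measures only the spread between these libraries.

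Antisense transcription is common in the human genome. Many antisense RNAs start at or near the promoter of a protein-coding gene and run away from it, while others start inside the gene or past its end and run back through it. Some are known to act on their neighbour, by recruiting chromatin regulators, by interfering with transcription through the shared stretch or by pairing with the sense RNA, and many have no known function. Chondrocyte hypertrophy is the late stage of cartilage cell maturation, at which the cells enlarge and the surrounding matrix is made ready for bone.

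The deposited values were on a log2 scale after relative log expression (RLE) normalization, with 1 value per gene and library. They are not divided by transcript length, so a position on the scale is not an abundance that can be compared between genes. The values do not show how many reads lie behind them, so the depth is unknown and counting error is not given. The table held 1707 genes with a higher and 987 with a lower mean in HM, and appeared to be the list that the authors had already called between these 5 libraries. An adjusted p computed on such a list is lenient, and a call says little beyond membership of the list. The smallest absolute log2 difference in the table was 0.21 among the 256 genes with a mean log2 value below 5 and 0.56 among the 579 genes at 11 or above, so the smallest differences in the table were at low values. The scale looks compressed at its low end and the form of the transformation is not given, so the folds printed for genes with low values, most antisense genes among them, may be smaller than those of the reads. Of the 14 chondrocyte markers examined, 5 were listed and all were higher in HM (SOX9 by 0.65, COL2A1 by 1.53, ACAN by 1.14, COL9A2 by 1.08 and COL9A3 by 1.02 on the log2 scale). Of 7 markers of hypertrophic chondrocytes, only MMP13 was listed, and it rose by 0.70. Of 11 epithelial, endothelial and immune markers, 4 were listed, with log2 differences of -0.81 for KRT18, -1.19 for CDH5, 0.44 for CDH1 and 1.24 for CD14. Their part in the results below was not tested. In bulk RNA a lower value from fewer cells of a kind and from less RNA per cell cannot be told apart.

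Sequences are shown first for the start regions where an antisense gene and the gene read away from it moved together, and for the members with the largest increase and the largest decrease. They are credited to RefSeq (GRCh38.p14 table) and were placed by exact match to GRCh37, the build of hg19. Each is written 5′ to 3′ on the antisense gene's strand, which is the minus strand in all 5, and covers bases between the RefSeq starts or before the RefSeq start of the antisense gene. The capitals mark matches to a motif searched on both strands (the TATA box TATAAA, the CCAAT box, the GC box GGGCGG, the RUNX core TGTGGT and ACGTG, the core of the hypoxia response element).
SRRM2-AS1 and SRRM2, the 37 bases between their starts, chr16:2802602-2802638: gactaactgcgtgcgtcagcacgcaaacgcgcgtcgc
HHIP-AS1 and HHIP, the 136 bases between their starts, chr4:145567172-145567307: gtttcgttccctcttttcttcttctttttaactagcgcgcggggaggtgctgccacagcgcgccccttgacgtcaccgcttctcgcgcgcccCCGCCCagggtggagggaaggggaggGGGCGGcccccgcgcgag
PRKG1-AS1 and DKK1, the 152 bases between their starts, chr10:54073889-54074040: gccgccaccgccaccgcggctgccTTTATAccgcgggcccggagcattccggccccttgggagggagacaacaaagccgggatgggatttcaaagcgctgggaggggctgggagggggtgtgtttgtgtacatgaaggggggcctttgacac
FOXD2-AS1, the 250 bases before its start, chr1:47900314-47900563: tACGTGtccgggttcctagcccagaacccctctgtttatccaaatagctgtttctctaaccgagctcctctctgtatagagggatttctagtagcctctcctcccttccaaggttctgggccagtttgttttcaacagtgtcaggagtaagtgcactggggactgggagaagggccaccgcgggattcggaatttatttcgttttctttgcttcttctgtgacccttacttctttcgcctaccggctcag
HIF1A-AS2, the 250 bases before its start, chr14:62215808-62216057: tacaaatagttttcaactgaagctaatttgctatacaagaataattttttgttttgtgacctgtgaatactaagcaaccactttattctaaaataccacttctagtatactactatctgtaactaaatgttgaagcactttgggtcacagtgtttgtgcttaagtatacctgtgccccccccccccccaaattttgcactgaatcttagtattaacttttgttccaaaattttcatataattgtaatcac
The stretch between SRRM2-AS1 and SRRM2 held 7 CpG dinucleotides and no motif match. The stretch between HHIP-AS1 and HHIP held 16 CpG and 2 matches to GGGCGG, 1 on each strand. The stretch between PRKG1-AS1 and DKK1 held 10 CpG and a TATAAA on the strand of DKK1, whose last base lay 25 bases before the start of DKK1. The 250 bases before FOXD2-AS1 held 9 CpG and 1 match to ACGTG. Those before HIF1A-AS2 held no CpG, had a GC content of 33.2% and matched none of the motifs searched. The paper names AGTGGT beside TGTGGT as a RUNX2 binding motif, and AGTGGT was not searched.

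Of the 70 antisense genes, 42 had a higher mean in HM and 28 a lower one. By limma with an adjusted p under 0.05 over all 2694 genes, 41 rose, beside 62.5% of all genes tested, and 28 fell, beside 36.5% of all genes tested. For 69 of the 70 every HM library lay on the same side of both GM libraries, beside 99% of all genes. At a 2-fold difference with an unadjusted p under 0.05, 1 antisense gene rose (11.8% of all genes tested) and 6 fell (7.05% of all genes tested). The difference stayed within 2 on the log2 scale in every member. The increases ran from 0.25 to 1.06 (1.19-fold to 2.08-fold) and the decreases from -0.30 to -1.68 (1.23-fold to 3.20-fold). The median log2 difference was 0.38 over the antisense genes and 0.56 over all listed genes. Without GM1, 25 rose and 24 fell, against 1438 and 854 of all genes, and without GM2, 26 rose and 22 fell, against 1372 and 889 of all genes. When each library was centred on its median over the listed genes, which moved all differences by -0.35, 7 antisense genes rose and 28 fell, against 845 and 987 of all genes. A shift in this direction could take away increases only, so the unchanged count of decreases shows nothing about their stability. The 7 that rose both as deposited and under median centring were FOXD2-AS1, GATA2-AS1, LIFR-AS1, MKLN1-AS, MSC-AS1, PSMB8-AS1 and PSMG3-AS1. Under quantile normalization, the other scaling used, GATA2-AS1 stood at 0.24 and was not called (limma, adjusted p = 0.0895).

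**Figure D1:**
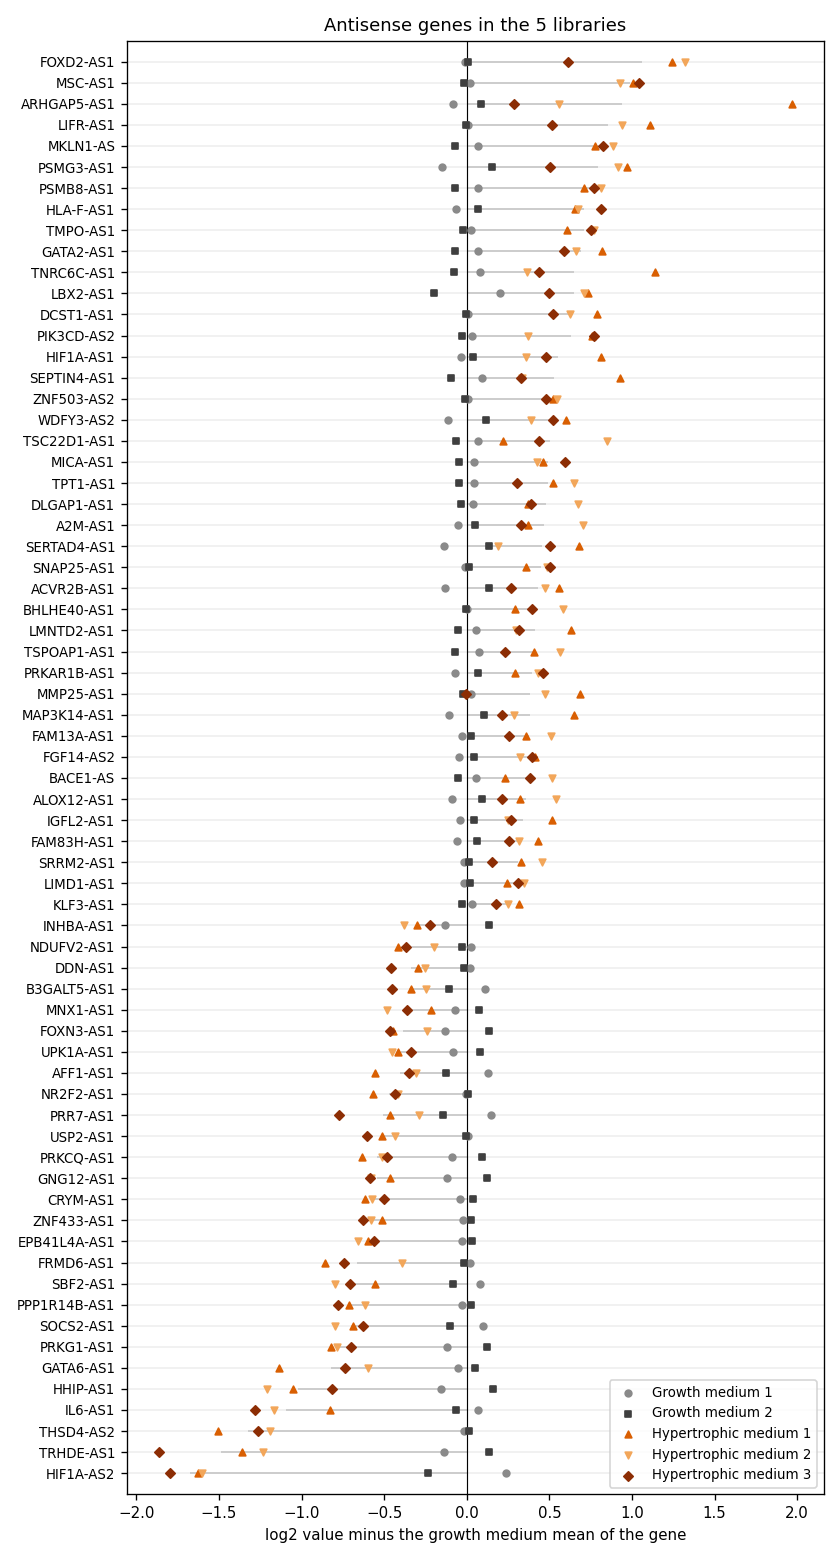
Log2 value of each antisense gene reported by name in each library, drawn as the distance from the gene's mean in growth medium (x axis, log2 units), with 1 gene per line, ordered by difference. Circles and squares are the 2 growth medium libraries, triangles and diamonds the 3 hypertrophic medium libraries, and the grey bar runs to the hypertrophic medium mean. MMP25-AS1 is the gene whose libraries overlap between the media, and ARHGAP5-AS1 is carried by hypertrophic library 1.

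The members with the largest decreases came from loci of very different kinds. HIF1A-AS2, an antisense RNA of the gene of the hypoxia-inducible factor subunit HIF-1α, had log2 values of 6.41 and 5.94 in GM and of 4.55, 4.57 and 4.38 in HM. All 3 HM libraries lay below both GM libraries, with a mean difference of -1.68 ± 0.15 (SE), a 3.20-fold decrease (limma, adjusted p = 4.99e-05). This was the lowest adjusted p of any antisense gene. TRHDE-AS1 (chr12:72643744-72670734, minus strand), opposite the gene of an enzyme that breaks down thyrotropin-releasing hormone, had 7.16 and 7.44 in GM and 5.94, 6.06 and 5.43 in HM. It fell by 1.49 ± 0.20, and HM3 was the lowest library. THSD4-AS2 had 6.76 and 6.79 in GM and 5.26, 5.58 and 5.51 in HM, a decrease of 2.50-fold. THSD4 is not analysed here.

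IL6-AS1 and HHIP-AS1 were also among the 6 antisense genes that fell by 2-fold. IL6-AS1 (chr7:22765014-22767239, minus strand), opposite the gene of the inflammatory cytokine interleukin-6, had 6.20 and 6.07 in GM and 5.31, 4.97 and 4.85 in HM. HHIP-AS1 (chr4:145564071-145582509, minus strand), beside the gene of the Hedgehog-interacting protein, had 8.14 and 8.45 in GM and 7.25, 7.09 and 7.48 in HM. Their log2 differences were -1.09 ± 0.16 and -1.02 ± 0.18, and neither gene's libraries overlapped between the media. HHIP-AS1 was under 2-fold without GM2 (-0.87) and without HM2 (-0.93), and IL6-AS1 was at 2-fold or just under it without HM3 (-0.999). HIF1A-AS2, TRHDE-AS1 and THSD4-AS2 stayed past 2-fold in each of the 5 fits that left out 1 library.

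Among the increases, FOXD2-AS1 was the largest. This gene (chr1:47897805-47900313, minus strand), read away from the gene of the forkhead transcription factor FOXD2, had log2 values of 6.13 and 6.15 in GM and of 7.38, 7.46 and 6.75 in HM. The HM libraries all lay above GM, by 1.06 ± 0.22 on average (2.08-fold, limma, adjusted p = 0.00177), with HM3 well below the other HM libraries. It was under 2-fold without HM1 (0.97) and without HM2 (0.93), and with median centring (0.71). MSC-AS1 (chr8:72740402-73030628, plus strand), opposite the gene of musculin, a repressor of the basic helix-loop-helix family, had 9.81 and 9.78 in GM and 10.80, 10.72 and 10.84 in HM, an increase of 0.99 ± 0.12. Its SE was the smallest among the 5 largest increases, and its adjusted p of 1.69e-04 was the lowest of them.

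ARHGAP5-AS1 (chr14:32544152-32545999, minus strand), opposite the gene of a GTPase-activating protein, had 6.23 and 6.40 in GM and 8.28, 6.87 and 6.60 in HM. Its mean difference of 0.94 ± 0.41 was carried by HM1, and was 0.42 without that library. Its adjusted p of 0.0491 in limma was the highest of any called antisense gene. The call was lost without GM1 (adjusted p = 0.0939), GM2 (0.0528) or HM2 (0.0653), and also with median centring (0.175), quantile normalization (0.0920), no trend (0.0607) and the filter on low values (0.0576). LIFR-AS1 (chr5:38556867-38671318, plus strand), opposite the gene of a leukemia inhibitory factor receptor subunit, had 6.12 and 6.12 in GM and 7.23, 7.06 and 6.64 in HM. MKLN1-AS (chr7:130994228-131013071, minus strand), named for the gene of muskelin, had 6.04 and 5.90 in GM and 6.75, 6.86 and 6.80 in HM. Both lay above GM in all HM libraries, by 0.86 ± 0.19 and by 0.83 ± 0.14.

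MMP25-AS1 was the antisense gene that did not pass the test. It had 6.07 and 6.03 in GM and 6.73, 6.52 and 6.04 in HM, so that HM3 lay between the GM libraries, and its difference was 0.38 ± 0.20 (limma, adjusted p = 0.0890). Without HM3 its difference was 0.58 with an adjusted p of 0.00875 (limma). It was 0.23 without HM1 (adjusted p = 0.237) and 0.34 without HM2 (adjusted p = 0.204). HM1 was the highest HM library for 20 of the 42 antisense genes with a higher mean, and for 55.1% of all genes with a higher mean. HM3 was the highest for 6 of the 42, and for 12.8% of all such genes.

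Among further members, A2M-AS1 had 4.05 and 4.16 in GM and 4.47, 4.81 and 4.44 in HM. IGFL2-AS1 had 3.59 and 3.67 in GM and 4.14, 3.88 and 3.90 in HM. TSC22D1-AS1 had 4.49 and 4.35 in GM and 4.64, 5.27 and 4.86 in HM, and here HM2 stood above the other HM libraries. Under the median centring, the difference of IGFL2-AS1 was -0.0044 and those of A2M-AS1 and TSC22D1-AS1 remained above 0 without passing the test. The members whose partner is not analysed here numbered 49, of which 28 rose and 20 fell, beside 62.5% and 36.5% of all genes tested. Besides those already named, those that rose included PSMG3-AS1, PSMB8-AS1, HLA-F-AS1, TMPO-AS1, GATA2-AS1, TNRC6C-AS1, LBX2-AS1, DCST1-AS1, PIK3CD-AS2, WDFY3-AS2, MICA-AS1, TPT1-AS1, DLGAP1-AS1, ACVR2B-AS1, PRKAR1B-AS1, MAP3K14-AS1, FAM13A-AS1, FGF14-AS2, ALOX12-AS1, FAM83H-AS1, LIMD1-AS1, KLF3-AS1 and HIF1A-AS1. Those that fell included GATA6-AS1, PRKG1-AS1, SBF2-AS1, EPB41L4A-AS1, ZNF433-AS1, CRYM-AS1, PRKCQ-AS1, USP2-AS1, PRR7-AS1, NR2F2-AS1, AFF1-AS1, UPK1A-AS1, FOXN3-AS1, MNX1-AS1, B3GALT5-AS1, DDN-AS1 and NDUFV2-AS1. Of the 70 symbols, 67 stood under the same name in the RefSeq table. FAM83H-AS1 is listed there as IQANK1, a protein-coding gene, CRYM-AS1 as ABCA15P, a transcribed pseudogene, and TNRC6C-AS1 as an older name of TMC6. For these 3 the antisense name of the deposited table is not the current one.

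The question for the 21 antisense genes with their partner in the table was whether the 2 changed alike. They did in all 21: both genes rose in 13 pairs and both fell in 8, and no pair had called genes of opposite direction by limma, at an adjusted or at an unadjusted p under 0.05. In every pair both genes had all HM libraries above, or all below, the GM libraries, as did 99% of all 2694 genes. Both genes of a pair had to be in the selected table to be counted, so a partner that did not change could not appear. Under median centring both genes were called in 10 pairs, with 2 rising and 8 falling together, and the difference kept the same sign in both genes in 20 of 21 pairs, with SRRM2-AS1 (-0.035) and SRRM2 as the exception. Without GM2, 12 pairs had both genes called and moved alike, and those of ARHGAP5, BACE1, BHLHE40, INHBA, LMNTD2, SEPTIN4, SRRM2, TSPOAP1 and ZNF503 were not called in both. Without GM1, 16 pairs did, and those of ARHGAP5, BHLHE40, SERTAD4, SRRM2 and ZNF503 were not called in both. For comparison, the table held 56 other pairs of genes on opposite strands that overlapped or started within 1000 bases of each other, and 49 of them (87.5%) moved in the same direction. Of the 46 in which both genes were protein-coding, 40 did (87.0%). The members and this set were not tested against each other.

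**Figure D2:**
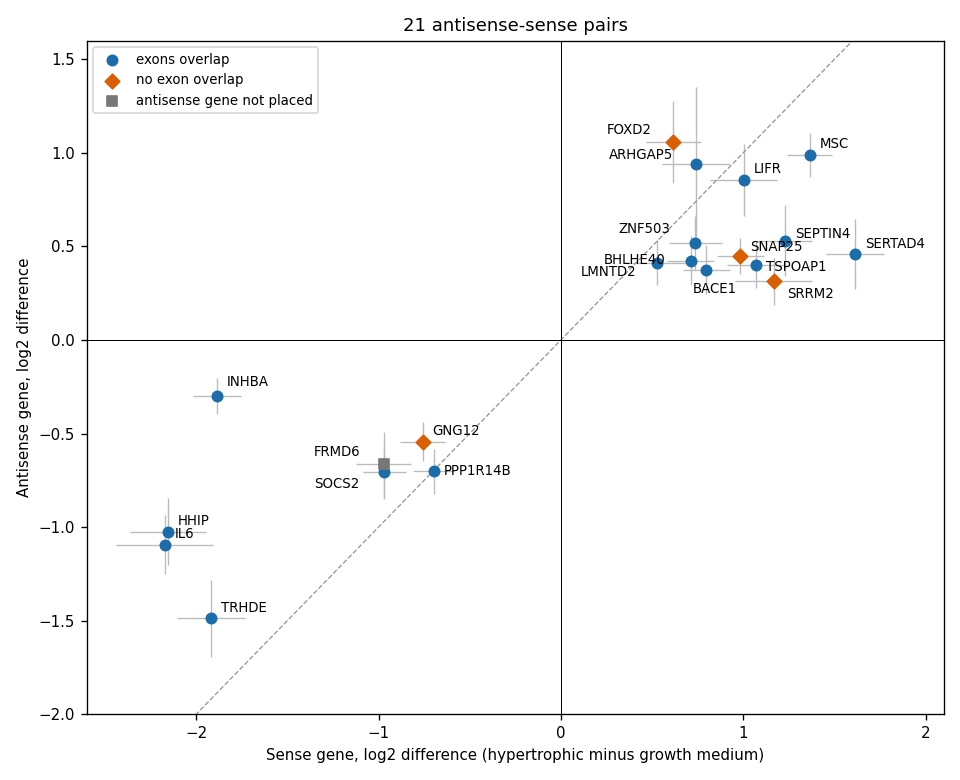
Log2 difference (hypertrophic minus growth medium) of the sense gene (x axis) and of the antisense gene (y axis) for the 21 pairs, named by the sense gene, with SE bars. The dashed line marks equal differences, and the mark shows whether exons of the genes overlap. All 21 pairs lie in the lower left or the upper right, and INHBA lies farthest from the line, at -1.89 for the sense and -0.30 for the antisense gene.

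The pairs that fell together included 4 secreted or membrane-bound regulators whose sense genes fell by 3.70-fold to 4.51-fold. IL6 had 10.00 and 10.02 in GM and 8.44, 7.64 and 7.43 in HM, and both IL6 and IL6-AS1 had HM1 as the highest and HM3 as the lowest HM library. IL6 fell by 2.17 ± 0.27 and IL6-AS1 fell by 1.09. HHIP, which binds Hedgehog ligands at the cell surface, had 9.74 and 9.71 in GM and 7.26, 7.98 and 7.47 in HM. It fell by 2.15 ± 0.21 and HHIP-AS1 fell by 1.02, and the HM library that was highest for HHIP (HM2) was the lowest for HHIP-AS1. TRHDE had 9.69 and 9.78 in GM and 7.91, 8.06 and 7.50 in HM, and the order of the HM libraries was the same as for TRHDE-AS1, with differences of -1.92 ± 0.18 and -1.49.

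INHBA, the activin A subunit, showed the widest gap to its antisense gene. INHBA had 14.07 and 14.03 in GM and 11.95, 12.28 and 12.26 in HM, a difference of -1.89 ± 0.13. INHBA-AS1 had 3.68 and 3.95 in GM and 3.52, 3.44 and 3.59 in HM, a difference of -0.30 ± 0.10 (limma, adjusted p = 0.0133), and its call was lost without GM2 (adjusted p = 0.117), without HM2 (0.0518) and in the fit without a trend (0.0535). Its mean log2 value was the third lowest among the antisense genes.

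The other pairs that fell did so by less than 2-fold in both genes. FRMD6, a FERM domain protein linked to the Hippo pathway, had 15.02 and 15.07 in GM and 13.92, 13.95 and 14.36 in HM, beside 8.71 and 8.68 in GM and 7.84, 8.31 and 7.96 in HM for FRMD6-AS1. SOCS2, a feedback inhibitor of cytokine and growth hormone signalling, had 12.67 and 12.78 in GM and 11.64, 11.77 and 11.87 in HM, and SOCS2-AS1 had 6.91 and 6.71 in GM and 6.12, 6.01 and 6.18 in HM. GNG12, a G protein γ subunit, had 14.73 and 14.80 in GM and 13.94, 13.90 and 14.18 in HM, and GNG12-AS1 had 4.53 and 4.77 in GM and 4.19, 4.07 and 4.06 in HM. PPP1R14B, an inhibitor of protein phosphatase 1, fell by 0.70 ± 0.11 and PPP1R14B-AS1 fell by 0.70 ± 0.12. PPP1R14B had 13.30 and 13.37 in GM and 12.72, 12.55 and 12.64 in HM, and PPP1R14B-AS1 had 5.75 and 5.81 in GM and 5.07, 5.17 and 5.00 in HM. It was the pair whose genes moved by the most similar amount.

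Among the 13 pairs that rose, several sense genes encode transcription factors. MSC had 10.94 and 11.05 in GM and 12.40, 12.20 and 12.48 in HM, an increase of 1.36 ± 0.12, and MSC and MSC-AS1 had the HM libraries in the same order. FOXD2 had 7.13 and 7.16 in GM and 7.84, 7.81 and 7.64 in HM, and with 0.62 ± 0.15 it rose by less than FOXD2-AS1. BHLHE40, a basic helix-loop-helix repressor, had 11.36 and 11.25 in GM and 12.20, 11.94 and 11.92 in HM, and BHLHE40-AS1 had 5.19 and 5.18 in GM and 5.48, 5.76 and 5.58 in HM. ZNF503, a zinc finger repressor, had 10.30 and 10.30 in GM and 11.28, 10.92 and 10.91 in HM, and ZNF503-AS2 had 7.63 and 7.62 in GM and 8.15, 8.17 and 8.10 in HM. In all 4 loci the libraries of each gene were apart between the media.

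SERTAD4 had the largest increase of any partner. It had 7.94 and 7.83 in GM and 9.70, 9.31 and 9.49 in HM (1.61 ± 0.16), beside 6.57 and 6.85 in GM and 7.39, 6.90 and 7.22 in HM for SERTAD4-AS1 (0.46 ± 0.19). HM2 lay only just above GM2 for the antisense gene, whose call was lost without GM1 (limma, adjusted p = 0.248), HM1 (0.0884) or HM3 (0.0816) and with quantile normalization (0.124) or median centring (0.588). SEPTIN4, a filament-forming GTPase, had 9.38 and 9.36 in GM and 10.79, 10.38 and 10.63 in HM. SEPTIN4-AS1 had 5.17 and 4.98 in GM and 6.001, 5.41 and 5.41 in HM. SRRM2, a component of the spliceosome and of nuclear speckles, had 12.72 and 12.51 in GM and 13.97, 14.07 and 13.30 in HM, an increase of 1.17 ± 0.21. SRRM2-AS1 had 4.83 and 4.87 in GM and 5.18, 5.30 and 5.00 in HM, an increase of 0.31 ± 0.12, and HM2 was the highest and HM3 the lowest HM library in both. The SRRM2-AS1 call was lost without GM1 (limma, adjusted p = 0.115), GM2 (0.0852), HM1 (0.0620) or HM2 (0.0873), and its sign turned with median centring.

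LIFR and ARHGAP5 were pairs in which the antisense log2 value minus the sense log2 value overlapped between the media. LIFR had 12.12 and 12.15 in GM and 13.54, 12.95 and 12.92 in HM (1.00 ± 0.18, against 0.86 for LIFR-AS1), and ARHGAP5 had 13.51 and 13.52 in GM and 14.67, 14.07 and 14.04 in HM (0.74 ± 0.18, against 0.94 for ARHGAP5-AS1). For both loci HM1 was the highest library of the sense and of the antisense gene. Without HM1, ARHGAP5 and ARHGAP5-AS1 still lay above GM in each remaining HM library.

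TSPOAP1, BACE1, SNAP25 and LMNTD2 completed the pairs that rose. TSPOAP1, a binding partner of the mitochondrial translocator protein, had 8.22 and 8.24 in GM and 9.56, 9.18 and 9.18 in HM, and TSPOAP1-AS1 had 4.58 and 4.44 in GM and 4.92, 5.08 and 4.74 in HM. BACE1, the β-secretase that cleaves the amyloid precursor protein, had 9.55 and 9.44 in GM and 10.29, 10.37 and 10.21 in HM, and BACE1-AS had 5.29 and 5.18 in GM and 5.46, 5.74 and 5.61 in HM. SNAP25, a SNARE protein of vesicle fusion, had 8.73 and 8.78 in GM and 9.75, 9.76 and 9.72 in HM, and SNAP25-AS1 had 4.26 and 4.28 in GM and 4.63, 4.75 and 4.77 in HM. LMNTD2 had 6.42 and 6.28 in GM and 6.995, 6.985 and 6.661 in HM, and LMNTD2-AS1 had 4.18 and 4.07 in GM and 4.76, 4.43 and 4.44 in HM. In each of these 4 pairs the sense gene moved by more than the antisense gene.

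**Figure D3:**
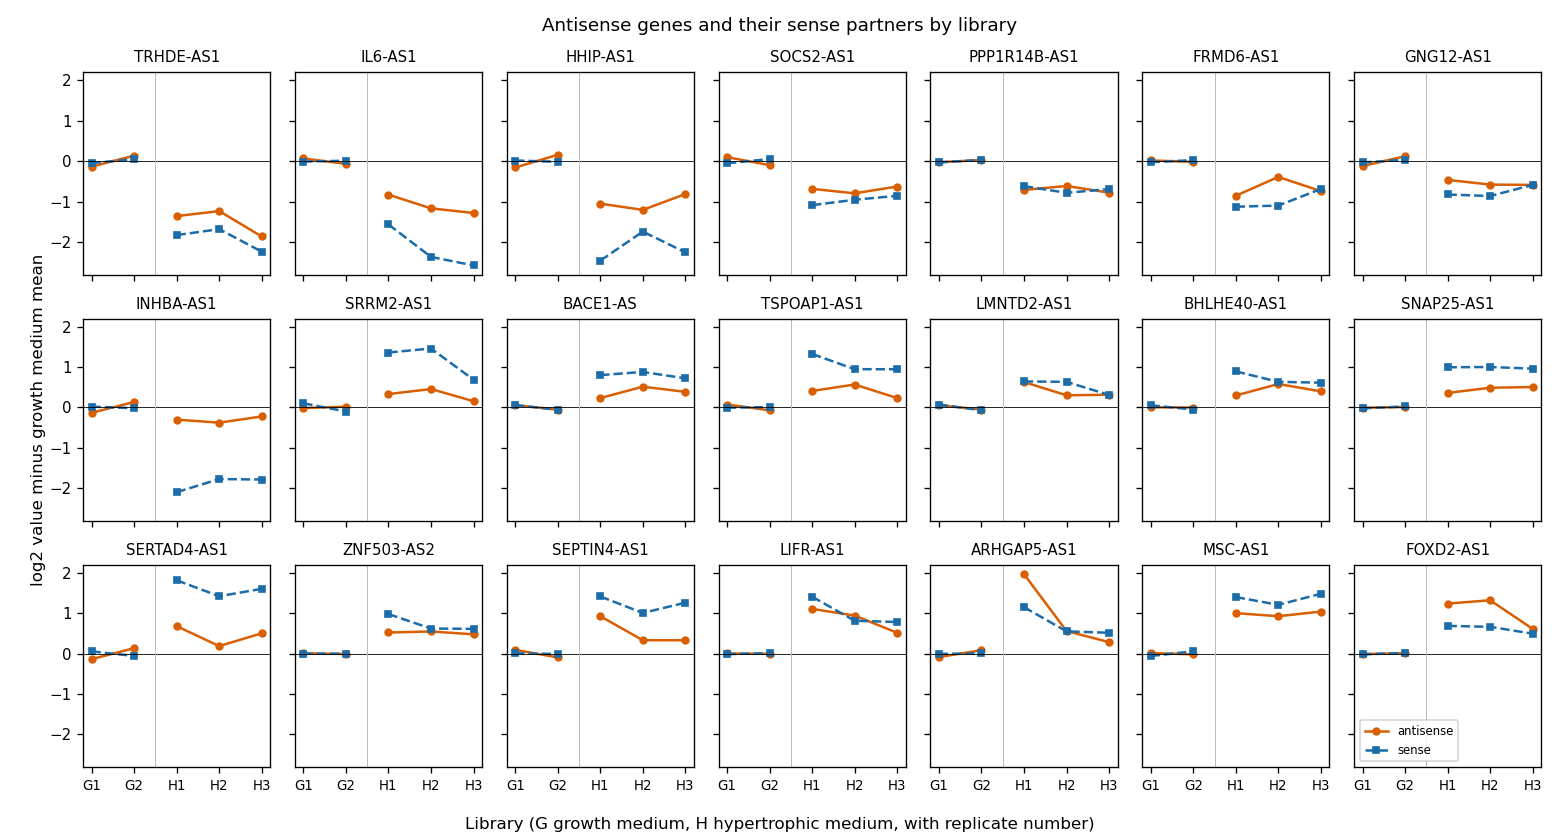
Log2 value of each antisense gene (circles, solid line) and its sense partner (squares, dashed line) in the 5 libraries, drawn as the distance from the gene's growth medium mean (y axis, log2 units), with 1 panel per pair named by the antisense gene. G and H stand for growth and hypertrophic medium with the replicate number. The sense line lies farther from 0 than the antisense line in most panels, and the reverse is seen for FOXD2-AS1 and, in hypertrophic library 1, for ARHGAP5-AS1.

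The sense gene had the larger difference in 18 of the 21 pairs, and the antisense gene in 3 (FOXD2, ARHGAP5 and PPP1R14B). Without HM1 the antisense difference was the larger in 1 pair (FOXD2), without GM1 or without HM3 in 2 (FOXD2 and ARHGAP5), and after quantile normalization in 5, with FRMD6 and LMNTD2 added. The antisense log2 value was also set against the sense log2 value within each library. A factor that scales a whole library cancels in this quantity on a plain log2 scale, and would not on a scale that is compressed at low values. The antisense minus the sense value did not overlap between the media in 15 pairs. It was lower in HM in 9 of the 13 pairs that rose and higher in HM in 5 of the 8 that fell, and FOXD2 was the pair that rose with a higher value. The largest shift upward was in INHBA, from -10.4 and -10.1 in GM to -8.44, -8.84 and -8.67 in HM (1.58 ± 0.19), and the largest shift downward in SERTAD4, from -1.37 and -0.98 in GM to -2.31, -2.41 and -2.28 in HM (-1.16 ± 0.15). The exact two-sided permutation test over the libraries cannot give less than p = 0.1, and 10 pairs had that value. The sense partners sat higher on the scale than the antisense genes, and differences at low values are smaller throughout the table, so the part of the scale in this pattern was not tested.

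Of the 3 HM libraries, the same one was highest for both genes in 11 of 21 pairs, and the full order of the 3 was the same in 7. HM1 was the shared highest library in SEPTIN4, SERTAD4, LIFR, LMNTD2, ARHGAP5 and IL6. In the other 10 pairs the genes differed in their highest HM library, as in HHIP, INHBA and GNG12 among the pairs that fell. Of all genes with a higher mean, HM1 was the highest HM library for 55.1% and HM2 for 32.1%. Of all genes with a lower mean, HM2 was the highest for 42.1% and HM3 for 35.6%. Whether pairs shared their highest library more often than other listed genes was not tested.

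The arrangement of each pair was read from GENCODE 44 lifted to GRCh37, in which 62 of the 70 antisense genes were found by symbol. Of the 21 pairs, 20 were placed, all with the genes on opposite strands, and FRMD6-AS1 was not found there. Exons of the 2 genes overlapped in 16 pairs, by 140 to 3037 bases with a median of 439.5. The overlap made up between 4.07% and 64.3% of the antisense gene's exonic bases, with a median of 11.4%, and was largest for BACE1-AS. No exon overlapped in FOXD2, GNG12, SNAP25 and SRRM2, and the gene bodies of FOXD2 and SRRM2 did not overlap their antisense genes at all. The library kit marked the strand, but whether the counting used it is not stated in the sources used here, and without it reads from overlapping exons cannot be told apart. The 4 pairs with no exon overlap changed alike too, with differences of 1.06 and 0.62 for FOXD2-AS1 and FOXD2, 0.31 and 1.17 for SRRM2-AS1 and SRRM2, 0.45 and 0.98 for SNAP25-AS1 and SNAP25, and -0.54 and -0.76 for GNG12-AS1 and GNG12. For the 46 protein-coding pairs used as comparison, 22 of 26 with exon overlap (84.6%) and 18 of 20 without (90%) moved in the same direction.

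The starts of 52 antisense genes could be placed by matching the RefSeq start region to 1 site in GRCh37. Each was set against the GENCODE bounds of the gene it is named for. Within 1000 bases of that gene's start, 6 started before it and 9 started inside it. A further 24 started inside it farther in, and 13 started elsewhere outside it. Of the 52, 8 started in an exon of that gene. The class depends on these bounds. IL6-AS1 started 1736 bases inside IL6 in GENCODE and 420 bases from its RefSeq start. For TRHDE-AS1 and TRHDE these distances were 186243 and 1139 bases. HHIP-AS1 started 137 bases from HHIP in RefSeq and 15201 bases from it in GENCODE, where it begins inside HHIP and shares 813 exonic bases with it. SRRM2-AS1 started 38 bases from SRRM2 in RefSeq and 26 in GENCODE. FOXD2-AS1 started 3403 bases from FOXD2.

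The HIF1A locus held 2 antisense genes that moved in opposite directions. HIF1A-AS1 had 5.05 and 5.13 in GM and 5.90, 5.45 and 5.57 in HM, an increase of 0.55 ± 0.15 (limma, adjusted p = 0.00749), while HIF1A-AS2 fell by 1.68. In each gene the HM libraries lay on 1 side of both GM libraries. Both are read from the strand opposite to HIF1A. Their RefSeq starts matched to GRCh37 were set against the bounds of HIF1A in GENCODE. HIF1A-AS1 started 310 bases inside HIF1A from its start, and HIF1A-AS2 started 830 bases past its end. Under median centring HIF1A-AS1 stood at 0.20 and did not pass the test (adjusted p = 0.228), while HIF1A-AS2 fell by more. HIF1A itself is not analysed here. No other gene had 2 antisense genes in the table.

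Beside the pairs by name, 4 antisense genes lay opposite another listed gene. PRKG1-AS1 (chr10:53990158-54074267, minus strand) overlapped the first bases of DKK1, a secreted Wnt inhibitor, by 227 exonic bases in GENCODE, and both fell. PRKG1-AS1 had 4.90 and 5.14 in GM and 4.20, 4.23 and 4.32 in HM, a difference of -0.77 ± 0.11. DKK1 had 13.75 and 13.76 in GM and 11.56, 11.22 and 11.19 in HM, a difference of -2.43 ± 0.14. In the RefSeq starts the 2 genes lay 153 bases apart, with the sequence between them shown above. PRKG1, for which the antisense gene is named, ended in GENCODE 15705 bases away from the RefSeq start of PRKG1-AS1. SBF2-AS1 (-0.69) and LINC02709 (-0.35) both fell, and SEPTIN4-AS1 (0.53) and TEX14 (0.35) both rose.

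DDN-AS1 and KMT2D formed the pair that moved in opposite directions. DDN-AS1 (chr12:49392150-49413024, plus strand) had 4.65 and 4.61 in GM and 4.34, 4.38 and 4.17 in HM, a difference of -0.34 ± 0.10. KMT2D, a histone H3 lysine 4 methyltransferase on the minus strand, had 11.69 and 11.47 in GM and 12.38, 12.48 and 11.89 in HM, an increase of 0.66 ± 0.18 (limma, adjusted p = 0.00623). Their exons overlapped by 267 bases. In both genes the libraries did not overlap between the media.

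The antisense genes sat low on the log2 scale. Their median of the mean log2 value was 5.71, with a range from 3.57 (B3GALT5-AS1) to 10.39 (MSC-AS1), against 8.40 over all listed genes and 10.74 over the 21 partners. Below 8 on this scale, the median absolute difference was 0.50 over the 62 antisense genes and 0.59 over the 1246 listed genes. At 8 or above it was 0.68 over the 8 antisense genes and 0.76 over the 1448 listed genes. The antisense genes at 8 or above were MSC-AS1, EPB41L4A-AS1, GATA2-AS1, TMPO-AS1, ZNF433-AS1, FRMD6-AS1, PRKCQ-AS1 and HLA-F-AS1. Of the partners, 19 of 21 lay at 8 or above.

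**Figure D4:**
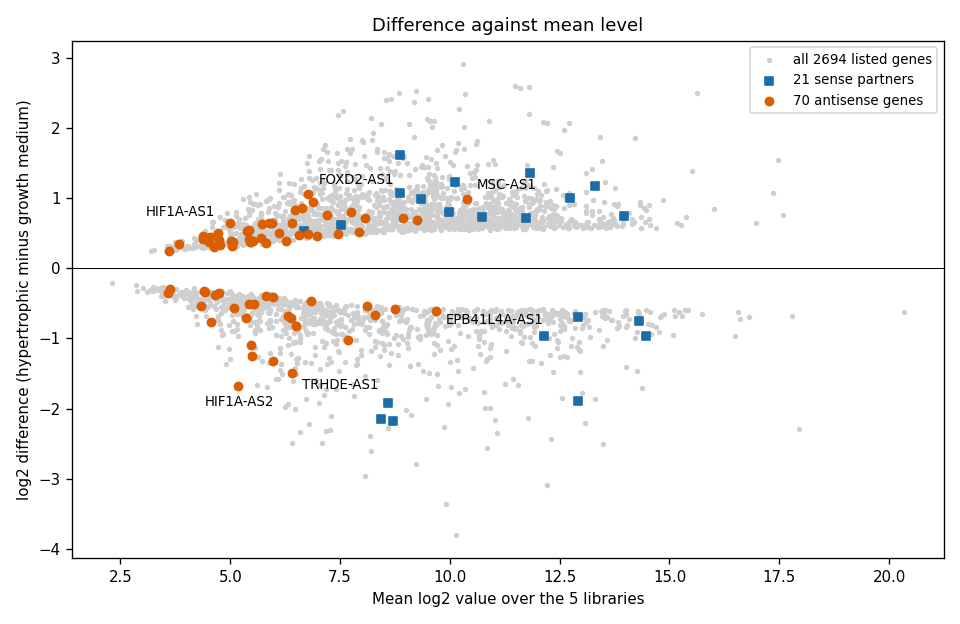
Log2 difference (hypertrophic minus growth medium, y axis) against the mean log2 value over the 5 libraries (x axis) for all 2694 listed genes (grey), the 70 antisense genes (circles) and the 21 sense partners (squares). The empty band around 0 widens from low to high values, and the antisense genes lie to the left of their partners.

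In the RefSeq table, start windows of 300 bases (250 before the start and 50 after) were found for 52 antisense genes and 16 partners, and 35116 windows of all genes served as background. GGGCGG occurred in 34 of the 52 antisense windows (65.4%), in 11 of the 16 partner windows (68.8%) and in 45.0% of all windows. TATAAA occurred in 3 of the 52 (5.77%) and in 11.5% of all, CCAAT in 14 (26.9%) and in 34.6% of all, TGTGGT in 7 (13.5%) and in 13.1% of all, and ACGTG in 13 (25%) and in 21.4% of all. The median count of CpG was 21.5 in the antisense windows, 26.5 in the partner windows and 14 in all windows. These shares describe letters in the windows and were not tested.

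Chosen lists of genes that act on RNA or on chromatin were also looked up in the table. None of the 18 genes of the nuclear RNA exosome and its adaptors was listed, nor any of 15 Integrator genes or of 18 genes that edit, cut or sense double-stranded RNA. Of 11 genes of the Polycomb repressive complex 2 and its accessory proteins, only PHF1 was listed, and it rose by 0.56 (10.74 and 10.75 in GM and 11.46, 11.36 and 11.09 in HM). The genes that are not listed are not analysed here.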

How the data were processed

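RNA from TC28a2 cells, 2 growth medium and 3 hypertrophic medium libraries, was sequenced with a stranded total RNA kit. Per the paper's methods, reads were mapped by the authors with HISAT2 to hg19, NCBI transcripts were counted with StringTie, genes without a count in some library were dropped and RLE normalization followed. The deposited values are log2, and the form of the transformation is not given in the sources used here. The submitters' processing notes name other tools (bcl2fastq 2.20.0.422, cutadapt 1.18, TopHat2 2.0.13 and Cuffdiff 2.2.1) and a rat build, rn5. No depth can be read from the values.

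Groups came from the sample labels. The whole table was fitted with limma 3.58.1 under R 4.3.3 (lmFit, eBayes with a mean-variance trend, no block), with Benjamini-Hochberg adjustment over all listed genes, and calls used an adjusted p under 0.05. This test replaced the study's count test because the values are log2. Differences are hypertrophic minus growth medium. The members, the related lists and the tests were chosen with earlier results of these data known. The genes named were every pair, the 5 largest changes in each direction, members that failed the test or overlapped between the media, members in the study's heatmap, and loci with more than 1 antisense gene. Genes named outside this rule (other listed genes opposite a member, and genes of the related lists) were taken by position or list. Some members enter the counts and are not reported here by name. The exon maps came from GENCODE 44 on GRCh37, and start windows from RefSeq (GRCh38.p14) were matched exactly to GRCh37. The fit was tested on simulated data. The alternatives were a replicate block, each library left out, 2 other scalings, no trend and a filter at a mean log2 value of 6. Other steps used Python 3.11.15, pandas 2.3.3, scipy 1.17.1 and matplotlib 3.10.9.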

Additional observations from a re-analysis of the deposited data

How the results depend on the processing

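The replicate numbers 1 and 2, shared by the media, did not pair the libraries (correlation of their deviations -0.0253). With the replicate number as a block, 42 antisense genes rose and 28 fell, against 1685 and 980 of all genes. MMP25-AS1 was called, and no other call of a member or partner at an adjusted p under 0.05 changed. At 2-fold, 3 antisense genes rose and 5 fell, with IL6-AS1 (-0.999) just under that size. Hypertrophic library 3 stands alone in its block, so these differences are those of the fit without it. When each library was left out in turn, the count of rising antisense genes ran from 25 to 41, that of 2-fold increases from 0 to 3 and that of pairs called alike from 12 to 20. Median centring left 7 increases, 0 at 2-fold, with 12 decreases at 2-fold, 10 sense partners higher, 10 pairs alike and a median difference of 0.029. It turned the sign of FAM83H-AS1 (-0.014), IGFL2-AS1 (-0.0044), KLF3-AS1 (-0.10), LIMD1-AS1 (-0.047) and SRRM2-AS1 (-0.035). Quantile normalization left 34 increases, 0 at 2-fold (limma), and 28 decreases among the members, and 1257 increases and 964 decreases among all genes, against 1683 and 984 without it. By its own construction the filter kept 28 members and 10 pairs. There were 16 increases and 10 decreases, against 1410 and 707 of all genes kept, with 2 decreases at 2-fold and 9 pairs alike. In each of these fits 0 pairs had both genes called (limma) in opposite directions. With 2 and 3 libraries the spread rests on few values, and without depth no limit of detection can be given.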

Other observations

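Other kinds of noncoding gene, grouped by the ending or start of the symbol, were also in the table. Symbols ending in -DT are given to divergent transcripts, RNAs that start at the promoter of a gene and run away from it. All 5 fell by limma with an adjusted p under 0.05, beside 36.5% of all genes tested. Their median log2 difference was -0.93. LYPLAL1-DT had log2 values of 8.52 and 8.60 in growth medium and of 6.25, 6.51 and 6.597 in hypertrophic medium (-2.11 ± 0.16), a larger decrease than that of any antisense gene. The others were CRIM1-DT (-1.12), APCDD1L-DT (-0.93), GAS6-DT (-0.74) and LHX1-DT (-0.72). The 2 symbols ending in -IT, for RNAs inside an intron, fell as well (ASAP1-IT1 with -0.55 and KCNQ5-IT1 with -0.89), as did ST7-OT4 (-0.73). Of 44 symbols beginning with LINC, the name for lncRNAs between genes, 17 rose and 26 fell by limma with an adjusted p under 0.05. Over all genes tested these shares were 62.5% and 36.5%. The LINC genes had a median log2 difference of -0.34. The antisense genes had a median of 0.38 and all listed genes one of 0.56. These classes were not tested against each other.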
